A study of Schizosaccharomyces pombe with 2 samples.

Results

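The genes described here are the rows of a fission yeast (Schizosaccharomyces pombe) expression table whose protein match text names a transcription factor or a transcriptional regulator. Of 5076 genes in the table, 22 had such a text. The text of dpb3 calls its product histone-like and was dropped, which left 21 genes. The 9 identifiers set aside by name (those of fep1, php2, php3, php4, php5, atf1, pcr1, pap1 and hsf1) had no text in the table, so setting them aside removed nothing. RNA was sequenced from 1 wild-type library and 1 library of a ppr10 deletion strain, both from cultures in logarithmic growth. The product of ppr10 is a pentatricopeptide repeat protein, a kind that binds RNA in mitochondria or plastids, and the submitters' stated aim was to look for a cause of cell death. With 1 library in each group, no difference can be set against the spread between cultures, so no test was made and every interval covers counting error only. Genes received 17053000 uniquely mapped reads (rounded) in the wild-type library and 16885000 in the deletion library. The deleted gene itself went from 1879 reads to 12 in the library labelled as the deletion.

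Gene-specific transcription factors bind short DNA elements near the genes they control and recruit or block the transcription machinery. In fungi the most numerous family carries the binuclear zinc cluster, in which cysteines hold a pair of zinc ions; its best known member is Gal4 of budding yeast, the activator of galactose genes. Many such proteins regulate the use of sugars, amino acids and other nutrients, and most of those in fission yeast have no assigned target genes.

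The members were mainly poorly characterised genes. The table's text calls 18 of the 21 uncharacterized, and 16 have no gene symbol in the reference annotation. The reference product of 18 of the 21 names a transcription factor. The text of ntu1 (SPBC16G5.16) gives the binuclear zinc cluster, and 5 members (ntu1, ntu2, SPCC417.09c, SPBC1773.12 and SPCC757.04) carried the pathway text for galactose metabolism, which only 9 genes of the table had. This text was assigned by the authors' annotation and does not show that these genes act on galactose in fission yeast. The gene dal81 (SPAC105.03c) shares its name with a budding yeast activator of genes for nitrogen breakdown.

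For a pair of members the annotation goes against the name of the group. SPBC8D2.12c, called a probable transcriptional regulatory protein in the table, is tac1 in the reference, a translational activator of cytochrome c oxidase subunit I, which is made inside mitochondria. SPCC645.13 is bye1, a regulator of transcription elongation; the budding yeast protein of that name binds RNA polymerase II. Neither is a gene-specific factor by these products, and both were kept because the text chose them.

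The selection is also partial. Only 1343 genes, 26.5% of the table, had any protein match text. Of 77 genes whose reference product names a transcription factor, general factors left out, 54 had no text, so well studied regulators such as ste11 are not among the 21. Nor is atf1, which had no text and was also set aside by name. Regulators of this kind are described after the members, from lists drawn up by role.

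The members were long genes of moderate expression. Their coding lengths ran from 882 bases (tac1) to 2934 bases (SPAC1327.01c), with a median of 1965 against 1140 for all genes. Their coding GC content had a median of 39.4%, against 39.7% for all genes. There were 7 members on chromosome I, 8 on chromosome II and 6 on chromosome III. All 21 had the same coding length in the reference as in the table, and none had a near-identical copy in the annotation.

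In the wild type the level of the 21 genes, in RPKM (reads scaled to coding length and to library size), ran from 8.64 to 108.5, with a median of 44.4. The median of all genes was 67.1 RPKM. In the deletion library the members ran from 12.7 to 140.3 RPKM with a median of 51.4, beside 72.8 for all genes. The most expressed member in both libraries was SPAC25B8.11, at 108.5 RPKM in the wild type against 140.3 in the deletion; 68.0% of all genes had a lower wild-type level. Next in the wild type came ntu2, annotated as a membrane-tethered transcription factor, at 94.5 RPKM, bye1 at 78.6 and SPCC757.04 at 78.3. At the other end were SPBC1773.12 (8.97 RPKM) and SPBC56F2.05c (8.64 RPKM), below which lay only 6.40% and 6.19% of all genes. These bottom places were the same in the deletion library.

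**Figure D1:**
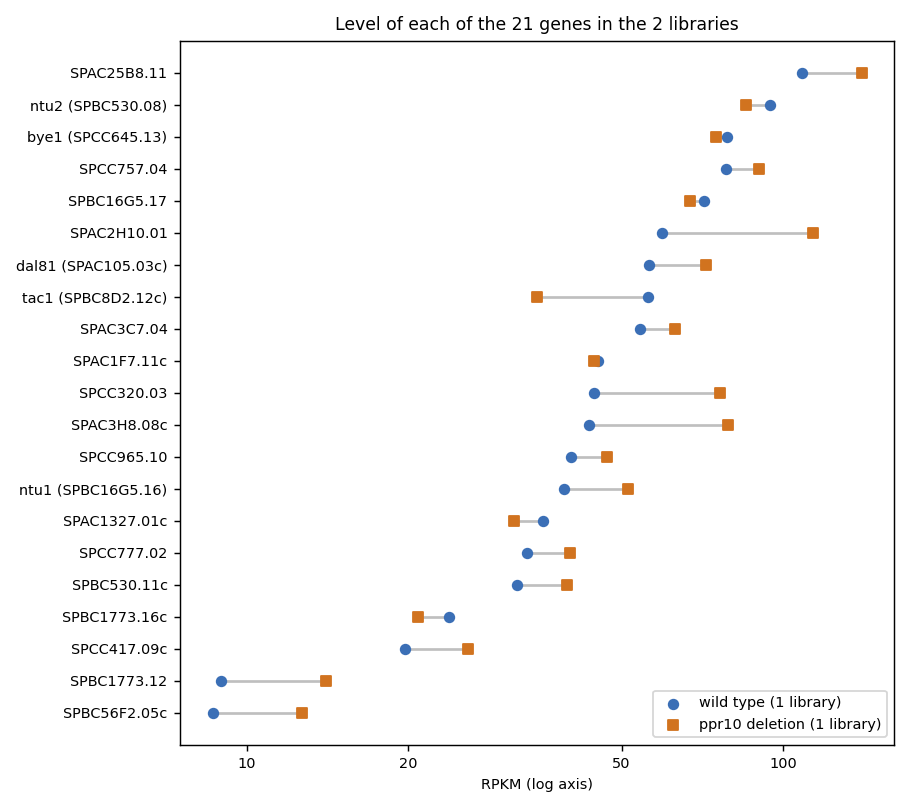
Level of each of the 21 genes in RPKM (log axis), with genes ordered by wild-type level; circles are the wild-type library and squares the ppr10 deletion library, 1 library each. The longest lines belong to SPAC2H10.01, SPCC320.03 and SPAC3H8.08c, which stand higher in the deletion, and to tac1, which stands lower.

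None of the 21 members reached a 2-fold difference between the libraries in either direction. A difference here is log2((deletion RPKM + 1)/(wild-type RPKM + 1)), counted where the mean RPKM was 1 or more, a level that all 21 passed. Over the 4986 genes at that level, 2.79% were at least 2-fold higher in the deletion library and 1.14% at least 2-fold lower, or 3.93% in all, so a list of this size with none is near the background. The members' log2 differences ran from −0.67 to 0.92, with quartiles at −0.06 and 0.39. For 20 of the 21 the counting interval of the ratio lay wholly within 2-fold in both directions; the exception was SPAC2H10.01, whose interval reached 2.04.

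The members leaned towards higher values in the deletion library. Their median log2 difference was 0.26, beside 0.05 for all 4986 genes, and 14 of 21 differences were positive. The share of positive differences was 66.7%, against 57.1% over all genes. Among the 1919 genes that fell within the members' ranges of both level and coding length, 67.9% were positive and the median was 0.11. The members' share of positive values was thus not larger than the share within these ranges. The 1919 genes include the members and were not matched to them individually. Added together, the members took 2081 RPM (reads scaled to library size alone) in the wild type (2060 to 2103) and 2466 in the deletion (2442 to 2489), a ratio of 1.18 (1.17 to 1.20).

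With a limit of 1.5-fold in place of 2-fold, 4 members (19.0%) were higher in the deletion, where the background was 7.94% of all genes and 7.71% of the genes within both ranges. At this limit 1 member (4.76%) was lower, beside a background of 4.49%. For 14 members (66.7%) the whole counting interval was above 1, where the background was 40.7%. For 4 members (19.0%) it was below 1, where the background was 29.7%. These intervals narrow as reads increase, and the median member had 1653 reads in the wild type against 1497 for all genes. The part of read number in these shares was not tested.

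**Figure D2:**
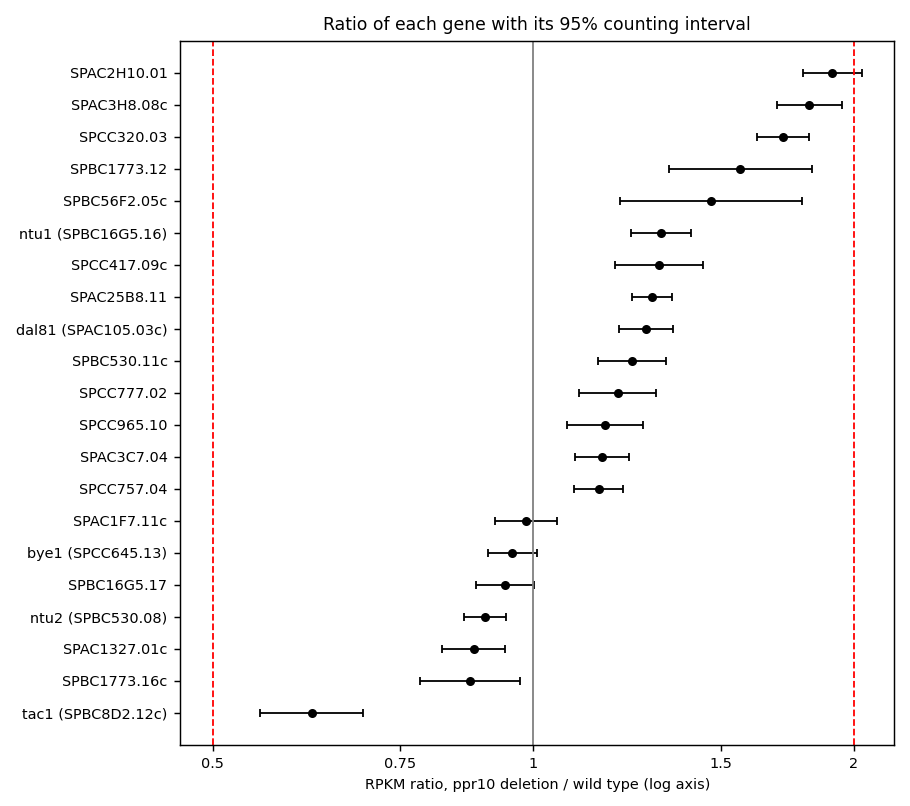
Ratio of RPKM, deletion over wild type (log axis), for each of the 21 genes, with exact 95% intervals that cover counting error only; dashed lines mark 2-fold. No point lies beyond the dashed lines, and tac1 stands apart at the low end at 0.620.

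A trio of uncharacterised factors had the largest positive differences. SPAC2H10.01 stood at 59.5 RPKM in the wild type (1463 reads) and 113.6 in the deletion (2767 reads), a ratio of 1.91 (1.79 to 2.04) and a log2 difference of 0.92. This put it 165th from the top among the 4986 genes, and it moved from sixth to second place in level among the members. SPAC3H8.08c went from 43.5 to 79.1 RPKM, a ratio of 1.82 (1.70 to 1.95). SPCC320.03 stood at 44.4 RPKM (1970 reads) against 76.2 (3350 reads), a ratio of 1.72 (1.62 to 1.82). For these 3 members the whole interval lay above 1.5. They were of middling level in the wild type, and their products carry no role beyond that of a transcription factor in the annotation.

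The weakest members came next. SPBC1773.12 went from 273 wild-type reads to 423 deletion reads, or 8.97 against 14.0 RPKM, a ratio of 1.56 (1.34 to 1.83). SPBC56F2.05c had 176 reads against 256, or 8.64 against 12.7 RPKM, a ratio of 1.47 (1.21 to 1.79). Their intervals were the widest of the 21 on the side above 1, since they rest on the fewest reads. They overlap each other and those of SPCC320.03, SPAC3H8.08c and, further down, ntu1, SPCC417.09c, SPAC25B8.11 and dal81. That of SPBC56F2.05c also overlaps those of SPBC530.11c, SPCC777.02, SPCC965.10, SPAC3C7.04 and SPCC757.04. The interval of SPBC1773.12 also overlaps that of SPAC2H10.01, so counting does not fully resolve the order of these members.

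A further 9 members stood between 1.15 and 1.32 times the wild-type level. The zinc cluster gene ntu1 was at 39.0 RPKM in the wild type against 51.4 in the deletion, a ratio of 1.32 (1.24 to 1.41). SPCC417.09c, at 19.7 against 25.9 RPKM, had a ratio of 1.31 (1.19 to 1.44). SPAC25B8.11 had a ratio of 1.29 (1.24 to 1.35). The intervals of these 3 overlap, so their order is not resolved by counting. The nitrogen-related name dal81 belonged to a gene at 56.4 RPKM in the wild type against 71.9 in the deletion, a ratio of 1.28 (1.20 to 1.35). SPBC530.11c stood at 31.9 against 39.5 RPKM (1.24), and SPCC777.02 at 33.4 against 40.1 (1.20). The remaining ratios were 1.17 for SPCC965.10 (40.3 against 47.0 RPKM), 1.16 for SPAC3C7.04 (54.0 against 62.7) and 1.15 for SPCC757.04 (78.3 against 90.2).

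Members near equality included the elongation regulator. The gene bye1 received 2902 wild-type and 2747 deletion reads, or 78.6 against 75.1 RPKM, a ratio of 0.956 (0.907 to 1.01). SPAC1F7.11c stood at 45.1 against 44.4 RPKM, a ratio of 0.985 (0.922 to 1.05), and SPBC16G5.17 at 71.2 against 67.0, a ratio of 0.941 (0.884 to 1.002). For these 3 a difference was not detectable at this depth. A further 3 members had counting intervals wholly below 1 but well within 2-fold. The membrane-tethered factor ntu2 had a ratio of 0.901 (0.860 to 0.943), from 94.5 to 85.1 RPKM. SPAC1327.01c, the longest member, had a ratio of 0.880 (0.821 to 0.942), and SPBC1773.16c one of 0.873 (0.783 to 0.972).

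The lowest value among the 21 belonged to the mitochondrial translational activator tac1. It received 844 wild-type and 518 deletion reads, or 56.1 against 34.8 RPKM. The ratio was 0.620 (0.555 to 0.692) and the log2 difference −0.67, the 161st lowest among the 4986 genes. The next lowest ratio, that of SPBC1773.16c, had an interval that did not overlap with it. In level tac1 moved from eighth to sixteenth place among the members, and no member moved by more than these 8 places. Without tac1 and bye1 the median of the remaining 19 members was 0.30, and 14 of 19 differences were positive.

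**Figure D3:**
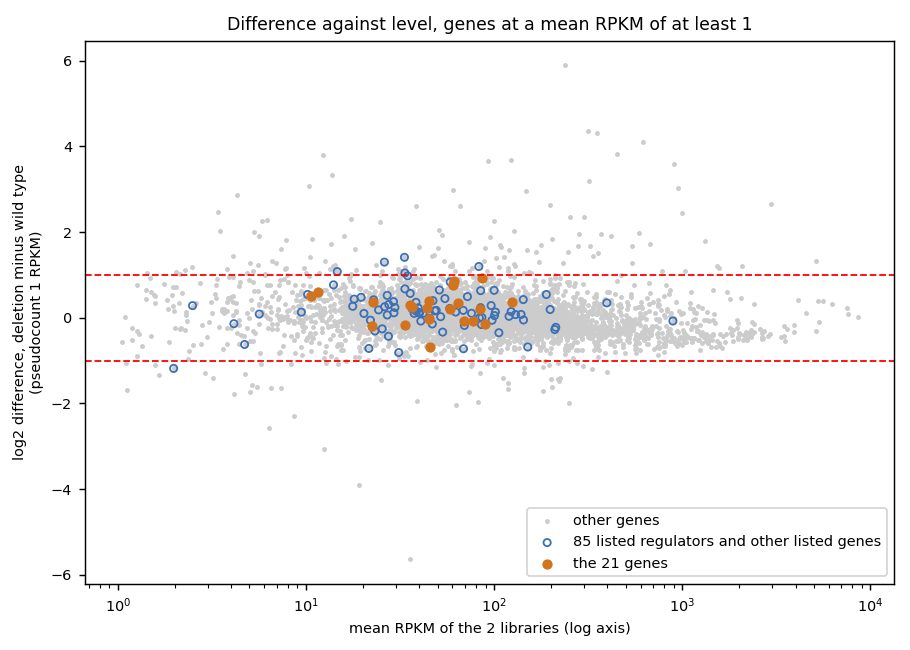
Log2 difference (deletion minus wild type, pseudocount 1 RPKM) against mean RPKM (log axis) for genes whose mean RPKM is 1 or more; filled points are the 21 members, open circles the 85 genes of the role lists, grey points all other genes, and dashed lines mark 2-fold. All 21 members lie between the dashed lines, from −0.67 to 0.92, while 5 role list genes lie above and 1 below.

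The neighbours of the members and their overlaps with other genes were taken from the annotation of a later build of the genome. A single pair of members were direct neighbours on chromosome II, ntu1 and SPBC16G5.17, and on the other side of ntu1 lies fkh2, a forkhead factor of the cell cycle. The ratios in this run of 3 regulators were 1.08 (0.998 to 1.16) for fkh2, 1.32 for ntu1 and 0.941 for SPBC16G5.17; the interval of ntu1 overlaps with neither of the others. Some members sit beside transporter or nitrogen-related genes. SPCC417.09c adjoins the dipeptide transporter gene dal51, with a ratio of 1.18 (1.06 to 1.31), beside 1.31 for the member. SPBC1773.16c adjoins the related gene dal52, with a ratio of 1.40 (1.30 to 1.51), beside 0.873 for the member. SPCC965.10 adjoins the amino acid transporter gene agp3, with 1.21 (1.10 to 1.32) beside 1.17. In the other direction, SPBC530.11c adjoins the ATP:ADP antiporter gene anc1, with a ratio of 0.682 (0.660 to 0.705), beside 1.24 for the member.

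Of the 39 neighbouring genes that are not members themselves and reached a mean RPKM of 1, 1 (2.56%) was at least 2-fold higher in the deletion library and 0 were lower, with a median log2 difference of 0.17. This share is near the background of 2.79%. That gene was SPCC1235.01, an uncharacterised gene beside SPCC320.03. It received 10353 wild-type and 55820 deletion reads, a ratio of 5.45 (5.33 to 5.56). The other neighbour of SPCC320.03, gem1, had a ratio of 0.981 (0.894 to 1.08). Beside SPAC3H8.08c, nab3, which encodes a poly(A)-binding protein, had a ratio of 1.82 (1.67 to 1.98), close to that of the member, 1.82, while pfd3 on the other side had 0.713 (0.633 to 0.804). In the reference, all 21 members overlap at least 1 gene annotated on the opposite strand, and most of these partners are not protein-coding. For 7 members a partner is protein-coding. Any such overlap was found for 90.2% of all matched genes, and overlap with a protein-coding gene for 37.9%. No source used here says whether counting used the strand, so reads from such partners cannot be told apart from those of the members.

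The better known regulators of fission yeast, which the protein match text left out, were taken from 9 role lists. Of 98 symbols, 85 matched a gene, and all 85 reached a mean RPKM of 1. In the deletion library 5 of the 85 were at least 2-fold higher, 1 was lower and 79 lay between, beside the background of 2.79% and 1.14%. Their median log2 difference was 0.14, beside 0.26 for the 21 members. A pseudocount of 5 RPKM left cbf12, rsv2 and php4, or 3 genes, higher and 0 lower.

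The 5 higher regulators came from the lists for stress, carbon, metals, mating and adhesion. The gene cbf12, which encodes a CSL family factor that promotes cell adhesion, stood at 17.8 RPKM in the wild type against 48.9 in the deletion, a ratio of 2.75 (2.55 to 2.98). The zinc finger factor gene rsv2 had a ratio of 2.56 (2.30 to 2.85). The glucose repressor gene scr1 had 2.24 (1.93 to 2.60), from 9.05 to 20.2 RPKM. The others were the CCAAT-binding complex genes php4 and php2, with log2 differences of 1.20 and 1.05. Also of this complex, php3 had a log2 difference of 0.075 and php5 one of −0.158, so the rise was not shared by all its genes. The call of php2 ended with the median gene set to 0 (0.995), edgeR TMM (0.997) and DESeq2 size factors (0.996). The only gene at least 2-fold lower was grt1, at 104 reads against 27, a ratio of 0.262 (0.165 to 0.404). Its level was low, at 3.13 RPKM in the wild type against 0.821 in the deletion. Its call ended with a pseudocount of 5 RPKM and with a minimum mean of 5 RPKM.

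By role, the list medians lay between 0.08 (cell cycle) and 0.36 (metals) on the log2 scale, beside 0.05 for all 4986 genes. With the median gene set to 0 the cell cycle median was 0.035, that of the growth and rRNA list went from 0.13 to 0.084, and that of the nutrient list from 0.14 to 0.090. In the stress list 1 of 14 genes (7.14%) was higher, beside the background of 2.79% of all genes. There atf1, the factor at the end of the Sty1 stress kinase pathway, had a log2 difference of 0.84. The stress list went both ways, with 9 of 14 differences positive and values from −0.62 (rsv1) to 1.30 (rsv2). In the carbon list 2 of 11 (18.2%) were higher, in the metal list 2 of 9 (22.2%) and in the adhesion list 1 of 6 (16.7%). In lists this short, 1 gene makes a large share. Also in the adhesion list, mbx2, a MADS-box activator of flocculin genes, had 0.98, while sre2 had −0.31, the lowest of the 6. Of 13 mating and meiosis genes 1 was higher, and of 9 growth and rRNA genes 1 was lower. None of 18 cell cycle genes, 12 nutrient genes and 2 sterol genes was past 2-fold; yox1, a corepressor of G1 genes, had −0.81, and fil1, an activator of amino acid genes, −0.72. Several genes stand in more than 1 list: the higher gene cbf12 is counted under both carbon and adhesion, and rsv2 under both stress and mating. The median of the 21 members, 0.26, lay within the range of the list medians, and no difference between the members and these lists was tested.

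**Figure D4:**
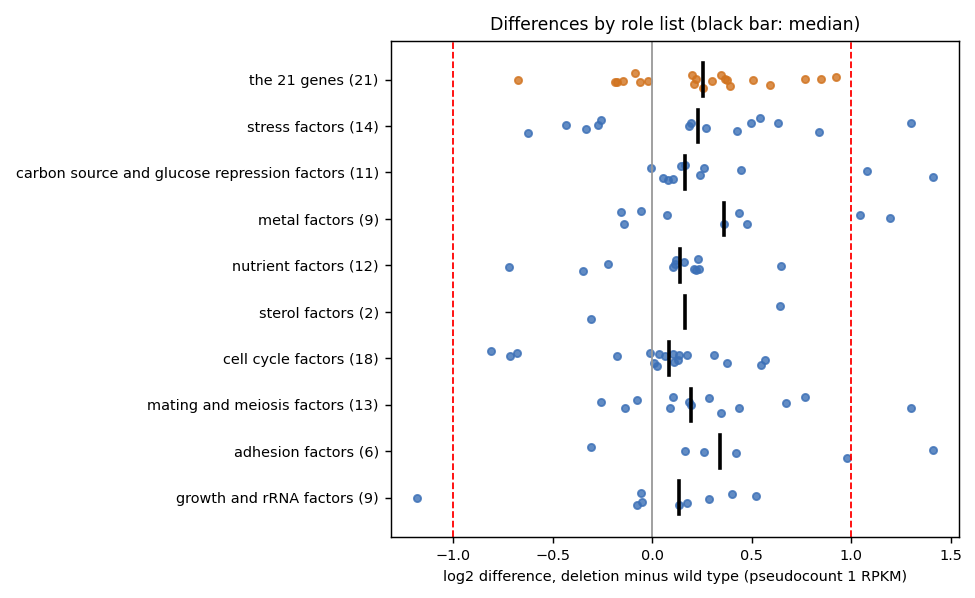
Log2 differences (deletion minus wild type, pseudocount 1 RPKM) of the 21 members and of the genes in each of the 9 role lists; each point is a gene, black bars are medians, dashed lines mark 2-fold and the number of genes is in brackets. The median of the members, 0.26, lies within the range of the list medians, 0.08 to 0.36.

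Markers of mating, sporulation and stationary cells were counted because cells outside vegetative growth could be present. Of 17 measured markers, 2 (11.8%) were at least 2-fold higher in the deletion and 1 (5.88%) was lower, beside the background of 2.79% and 1.14% of all genes, with a median of 0.07 and 10068 reads in all in the wild type against 10773. The higher ones were meu10 and spo5, and the lower one was isp4. The level of spo5 was low, at 0.964 RPKM in the wild type (28 reads) against 3.09 in the deletion (89 reads). The part of cells outside vegetative growth in the values of the members was not tested. In RNA from whole cultures, fewer cells of a kind cannot be told apart from less RNA in each cell.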

How the data were processed

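The analysis started from a table in which, per the file headers, the authors gave for each gene a count of uniquely mapped reads and an RPKM value per library. The deposited counts are whole numbers. The deposited RPKM values follow from those counts, the listed length and the column totals, with a largest difference of 4.99e-07 on recomputation. The lengths, of which 5075 of 5076 are multiples of 3, are taken as coding lengths. Dashes were read as 0. Per the submitters' processing notes, Bowtie2 2.2.3 and TopHat2 2.0.12 were used with build ASM294v2; no source used here gives the annotation release or the strand setting.

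With 1 library per group, RPKM was the measure of size and no model was fitted. Differences used a pseudocount of 1 RPKM and were counted where the mean reached 1 RPKM. Ratios have exact (Clopper-Pearson) 95% intervals and summed reads have exact Poisson intervals. Both treat each read as a separate count and cover counting error only. Reads that carry no molecular identifiers can be copies of 1 molecule, and where they are, these intervals are too narrow. The calculation was tested on simulated data. Names, products, gene order and opposite-strand genes came from the RefSeq annotation of ASM294v3, a later build, matched by locus tag without regard to case (5048 genes, all 21 members). A near-identical copy was a BLAST+ 2.17.0 match of at least 90% over 200 bases. Scaling alternatives used edgeR 4.0.16 and DESeq2 1.42.0; other work used Python 3.11.15 with scipy 1.17.1.

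The members and lists were chosen with earlier results of these data known. The naming rule took members past 2-fold, the 12 largest positive and 12 largest negative differences where the mean reached 5 RPKM, the extremes of level, and up to 6 genes per role list. Among the members SPAC3C7.04 alone falls outside it and was named so that all 21 are accounted for. The neighbouring genes and the marker genes named in the text were chosen after their values were seen. Of the genes in the role lists, arg5, tea1, dbp2, zip2, csk1, hap2, mug24, rrn3, teb1 and rap1 have another function by reference product; they were kept and left out in an alternative. Planned lists of target genes were not used, since the regulators they belong to are not among the 21 members.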

Additional observations from a re-analysis of the deposited data

How the results depend on the processing

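The counts of members at least 2-fold higher or lower were 0 under every setting of pseudocount, filter, scaling and membership tried; a limit of 1.5-fold gave 4 higher and 1 lower, and a limit of 3-fold gave 0 of each. The median of the members lay between 0.16, over the 2 members whose text says transcription factor, and 0.30, with TPM. Scaling moved the median of all genes by no more than 0.05. Of 147 values of single members under the alternatives of pseudocount and scaling, 147 stayed within their counting interval and 1 had another sign, SPAC1F7.11c with TPM (0.02); the scalings shift all genes nearly alike, and the filters cannot change the value of a gene. For the role lists together, where 5 were higher, 4 were with the median gene set to 0, edgeR TMM and DESeq2 size factors (without php2), 6 were with a pseudocount of 0.1 RPKM and with TPM (with mbx2), 3 were higher and 0 lower with a pseudocount of 5 RPKM, 0 were lower with a minimum mean of 5 RPKM, and the median was 0.096 with edgeR TMM, 0.095 with DESeq2 size factors and 0.095 with the median gene set to 0. Leaving out genes of another function, like leaving out tac1 and bye1, was chosen after seeing the data; without the former the role list median was 0.14. The planned medians of target lists were not run. No paired analysis was possible because a group is a lone library, which also means that none could be left out. Depth limits the weakest members most, at 176 and 273 wild-type reads.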
